A study of Mus musculus with 6 samples.

Results

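Dhx34, Gm29443, 9330104G04Rik, Pnmal1 and Gm42372 are 5 genes that start between 16 and 17 Mb of mouse chromosome 7 (genome build GRCm38.p6). They were chosen by name because they differed between the cerebella of knockout and wild-type mice, and they are set here beside the other expressed genes of the same interval. The table of 55098 genes lists 50 in the interval. Of the 45 other genes there, 38 had a count in some library and 21 had enough counts to be tested, while all 5 chosen genes were tested. RNA levels of 4 of the 5 were lower in the knockout cerebellum and that of Dhx34 was higher, and the genes between them were mostly at wild-type level.

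RNA-seq had been done on the whole cerebellum of males aged 60 postnatal days. The KO group holds animals 2, 4 and 6, labelled Slc39a14 knock-out, and the WT group holds animals 1, 3 and 5, labelled Slc39a14 wildtype, with 1 library per animal and no other treatment given. Slc39a14, which lies on chromosome 14, encodes the metal transporter ZIP14, which carries manganese among other metals, and its loss serves in the series to model a childhood dystonia with parkinsonism. Strain, breeding and the design of the allele were not given in the sources used here.

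Total gene counts were 13912821 to 15754275 in KO and 13805997 to 15788135 in WT libraries. Slc39a14 was at 42.3 ± 3.18 CPM in KO against 42.4 ± 1.33 CPM in WT, where CPM are counts scaled to library size with TMM normalization and ± is the SD over the n = 3 libraries of a group throughout. Its gene count therefore did not check the labels, and every direction below rests on them. Markers of granule cells, Purkinje cells and Bergmann glia, the defining cells of the cerebellum, had counts in every library (4 of 4, 4 of 4 and 3 of 3 genes). On the first principal component of the 1000 most variable genes (31.0% of variance) KO 4 (12) and WT 5 (15.9) stood away from the remaining libraries (-9.12 to -3.23). Values without KO 4 and WT 5 are therefore given where they bear on a gene. On the second component (27.9%) the groups did not overlap, with KO at 4.51 to 13.1 and WT at -13.0 to -4.81. In whole tissue, fewer cells of a type and less RNA per cell cannot be told apart.

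Dhx34 encodes a DEAH-box RNA helicase that takes part in nonsense-mediated decay, the pathway that removes messenger RNAs with early stop codons. That role is known from human cells, worms and zebrafish. Pnmal1, also named Pnma8a, belongs to the PNMA family, genes derived from the gag gene of ancient retrotransposons and strongly expressed in brain. 9330104G04Rik is annotated as a long intergenic non-coding RNA and Gm29443 as an antisense RNA, and Gm42372 is a predicted protein-coding gene to which no role is assigned here.

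The promoters are shown first, because these genes lie close together and differ together between genotypes. The RefSeq promoter sequences (GRCm38.p6) matched 4 of the 5 by name, all but Pnmal1. Each line holds the 250 bases before the RefSeq start, on the strand of the gene, with motif matches in capitals. Dhx34 is on the minus strand (chr7:16222033-16222282), as is 9330104G04Rik (chr7:16874887-16875136), while Gm29443 (chr7:16613574-16613823) and Gm42372 (chr7:16982833-16983082) are on the plus strand.
Dhx34: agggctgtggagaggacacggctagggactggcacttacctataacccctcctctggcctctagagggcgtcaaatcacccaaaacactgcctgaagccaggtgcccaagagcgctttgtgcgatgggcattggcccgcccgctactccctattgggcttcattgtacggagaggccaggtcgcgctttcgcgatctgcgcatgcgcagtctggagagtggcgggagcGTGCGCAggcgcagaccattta
Gm29443: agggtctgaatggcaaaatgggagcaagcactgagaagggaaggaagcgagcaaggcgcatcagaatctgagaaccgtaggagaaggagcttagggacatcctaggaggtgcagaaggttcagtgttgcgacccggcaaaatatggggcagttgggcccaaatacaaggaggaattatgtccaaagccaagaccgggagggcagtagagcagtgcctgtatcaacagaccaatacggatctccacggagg
9330104G04Rik: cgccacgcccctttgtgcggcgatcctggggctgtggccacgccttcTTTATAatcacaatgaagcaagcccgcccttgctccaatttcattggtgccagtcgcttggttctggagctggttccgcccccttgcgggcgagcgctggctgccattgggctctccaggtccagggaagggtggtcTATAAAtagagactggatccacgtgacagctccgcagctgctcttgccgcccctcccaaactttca
Gm42372: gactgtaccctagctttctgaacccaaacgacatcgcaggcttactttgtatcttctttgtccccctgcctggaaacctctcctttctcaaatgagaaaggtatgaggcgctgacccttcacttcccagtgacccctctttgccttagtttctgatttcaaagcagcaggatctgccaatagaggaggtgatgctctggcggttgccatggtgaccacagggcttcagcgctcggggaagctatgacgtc

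Both strands were searched for 5 motifs, and 3 of them had no match in these windows. The interferon-stimulated response element (GAAA, 2 bases of any kind, GAAA) is held by 2.97% of the 32817 RefSeq promoter windows of the same length. The STAT-binding GAS motif TTCNNNGAA is held by 7.01% and the metal response element core TGCACNC by 10.4%. The other metal response element core, TGCGCNC (12.5% of windows), matched once, in Dhx34, on the opposite strand and beginning 22 bases before the start. The TATA motif TATAAA (12.4% of windows) matched at 66 and, on the opposite strand, at 203 bases before the start of 9330104G04Rik. No searched motif overlapped another. CpG dinucleotides numbered 17 in Dhx34, 8 in Gm29443, 14 in 9330104G04Rik and 7 in Gm42372, against a median of 6 over all windows. No searched motif was common to these 4 windows, and a match is a description of letters and no evidence of binding.

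Dhx34 (ENSMUSG00000006019, chromosome 7, 16197147 to 16222037, minus strand) was the one higher gene. It had 450, 344 and 380 counts in KO 2, 4 and 6 and 272, 280 and 287 counts in WT 1, 3 and 5. In CPM this was 28.3, 24.0 and 27.3 in KO and 19.7, 17.9 and 21.1 in WT. The groups did not overlap, and the lowest KO library was 1.14 times the highest WT library. The mean was 26.5 ± 2.24 CPM in KO against 19.6 ± 1.60 CPM in WT, a log2 fold change of 0.44 (SE 0.13). Without KO 4 and WT 5 it was 0.57. The gene has up to 17 exons per transcript and 7 annotated transcripts in GENCODE M21, and counts per gene do not say which transcript was higher. Relative to Meis3, the nearest tested gene before it, Dhx34 had 118%, 119% and 88.6% of the counts in KO 2, 4 and 6. In WT 1, 3 and 5 it had 64.6%, 58.5% and 98.6%. In this ratio KO 6 lay below WT 5, so the groups overlapped.

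Pnmal1 (ENSMUSG00000041141, 16959679 to 16964607, plus strand) had 607, 506 and 592 counts in KO and 733, 929 and 662 counts in WT. Its level was 38.2, 35.3 and 42.5 CPM in KO 2, 4 and 6 and 53.2, 59.3 and 48.6 CPM in WT 1, 3 and 5. The groups did not overlap, and the nearest libraries, KO 6 and WT 5, differed 1.14-fold. The mean was 38.7 ± 3.61 CPM in KO against 53.7 ± 5.38 CPM in WT, which puts KO at 72.0% of WT, with a log2 fold change of -0.47 (SE 0.12).

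Gm42372 (ENSMUSG00000108348, 16983086 to 16988152, plus strand) is a single-exon gene that begins 18478 bases after the end of Pnmal1, with no tested gene between them. It had 500, 478 and 696 counts in KO and 868, 1147 and 871 counts in WT, or 31.5, 33.4 and 50.0 CPM in KO 2, 4 and 6 and 63.0, 73.2 and 63.9 CPM in WT 1, 3 and 5. KO 6 stood well above KO 2 and KO 4, and the groups did not overlap. The mean was 38.3 ± 10.2 CPM in KO against 66.7 ± 5.64 CPM in WT, which puts KO at 57.4% of WT, with a log2 fold change of -0.80 (SE 0.17). Without KO 6 it was -1.04.

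The neighbours shifted unequally within a library. Gm42372 had 0.824, 0.945 and 1.18 counts per Pnmal1 count in KO 2, 4 and 6 and 1.18, 1.23 and 1.32 in WT 1, 3 and 5, so KO 6 came level with WT 1 in this ratio at 3 digits. Set against Pnmal2, the PNMA gene 10850 bases before Pnmal1, Gm42372 had 9.42%, 12.5% and 14.4% of its counts in KO and 22.1%, 21.3% and 21.1% in WT. Pnmal1 had 11.4%, 13.2% and 12.2% of Pnmal2 counts in KO and 18.6%, 17.2% and 16% in WT. In both ratios the groups did not overlap. Pnmal2 itself was at 316 ± 42.6 CPM in KO against 311 ± 30.0 CPM in WT (log2 fold change 0.03, SE 0.12).

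Gm29443 (ENSMUSG00000100583, 16613824 to 16632643, plus strand) is a low-level RNA with 7, 1 and 7 counts in KO 2, 4 and 6 and 22, 26 and 13 counts in WT 1, 3 and 5. These are 0.440, 0.0698 and 0.503 CPM in KO against 1.60, 1.66 and 0.954 CPM in WT. The groups did not overlap, KO 4 rested on a single count, and WT 5 was the lowest WT library. The log2 fold change was -2.03 (SE 0.57), and -1.56 without KO 4. The pooled counts, 15 in KO and 61 in WT, stood in a depth-corrected ratio of 0.240 (exact 95% interval 0.127 to 0.427, counting error only).

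Gm29443 begins inside Arhgap35, which runs the other way and encodes a GTPase-activating protein. The genes share 1170 bases of span and 0 exonic bases in GENCODE M21. Gm29443 also shares span with Gm29442 (1206 bases) and Gm24708 (103 bases) on the opposite strand and Gm44589 (115 bases) on the same strand. With each of these it shares 0 exonic bases. Arhgap35 was at 216 ± 9.84 CPM in KO against 221 ± 5.19 CPM in WT (log2 fold change -0.03, SE 0.09). The strand setting of the counting was not given in the sources used here. Gm29443 counts may therefore include reads from unspliced RNA of Arhgap35 or of the other overlapping genes where the spans overlap, and this was not tested. Per 100 counts of Arhgap35 there were 0.201, 0.034 and 0.224 Gm29443 counts in KO 2, 4 and 6 and 0.741, 0.748 and 0.422 in WT 1, 3 and 5, and these groups did not overlap either.

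9330104G04Rik (ENSMUSG00000097842, 16871347 to 16874886, minus strand) had 9, 15 and 34 counts in KO and 93, 81 and 42 counts in WT. Its level was 0.566, 1.05 and 2.44 CPM in KO 2, 4 and 6 and 6.75, 5.17 and 3.08 CPM in WT 1, 3 and 5. The libraries spread widely inside each group, 4.31-fold in KO and 2.19-fold in WT, and KO 6 and WT 5 came within 1.26-fold of each other. The mean was 1.35 ± 0.974 CPM in KO against 5.00 ± 1.84 CPM in WT, with a log2 fold change of -1.90 (SE 0.48). Without KO 6 it was -2.63 and without KO 2 it was -1.52. The pooled ratio of 58 to 216 counts was 0.262 (exact 95% counting interval 0.193 to 0.352).

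The start of 9330104G04Rik lies 431 bases from that of Dact3, an inhibitor of Wnt signalling transcribed in the other direction. Dact3 was at 45.6, 44.5 and 67.9 CPM in KO 2, 4 and 6 and 72.0, 64.4 and 38.0 CPM in WT 1, 3 and 5, so its groups overlapped (log2 fold change -0.14, SE 0.24). Relative to Dact3, 9330104G04Rik had 1.24%, 2.35% and 3.59% of the counts in KO and 9.38%, 8.02% and 8.11% in WT. In this ratio WT 5 lay with the other WT libraries. On the other side, Prkd2, which encodes protein kinase D2 and ends 882 bases away, was at 9.0 ± 0.358 CPM in KO against 7.72 ± 0.749 CPM in WT (log2 fold change 0.22, SE 0.17).

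**Figure D1:**
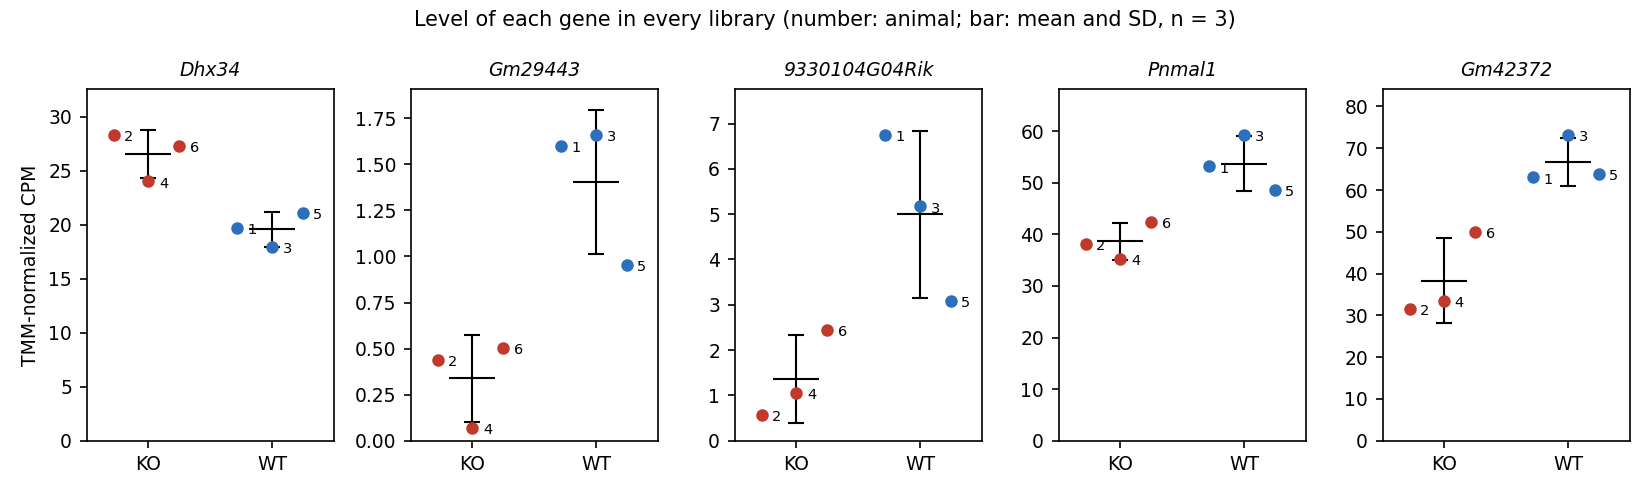
TMM-normalized CPM (vertical axis, from 0) of the 5 genes in the 3 KO and 3 WT libraries. Points are libraries with the animal's number, and bars are the mean and SD; in each gene the groups do not overlap, and KO 6 and WT 5 are the libraries nearest to the other group in 3 of the 5 (Gm29443, 9330104G04Rik and Pnmal1).

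In each of the 5 genes the KO and WT libraries did not overlap. Over all 17142 tested genes 7.26% did not overlap, 3.58% with KO higher and 3.68% with KO lower, and since the genes were chosen on this contrast nothing is read from the count. The edgeR quasi-likelihood test with Benjamini-Hochberg adjustment called 8 of the 17142 genes (0.0467%), none of them in the interval. That count was 0 without WT 1 or WT 3, 2 without KO 2, 3 without KO 6, 17 without KO 4 and 27 without WT 5. The authors' deposited table called 0.128% of its genes, and of the 5 only Gm42372 (log2 fold change -0.80, adjusted p = 0.00738). In the authors' deposited table the log2 fold changes of the other genes were 0.44 for Dhx34, -2.05 for Gm29443, -1.90 for 9330104G04Rik and -0.47 for Pnmal1. These values chose the genes and are given as a description.

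Per length, the 3 protein-coding genes lay above the 2 non-coding ones in both groups. The deposited FPKM of Gm42372 was 7.17 ± 1.92 in KO and 12.6 ± 1.06 in WT, and that of Pnmal1 8.97 ± 0.843 in KO and 12.6 ± 1.22 in WT. Dhx34 had 5.48 ± 0.455 FPKM in KO against 4.08 ± 0.350 FPKM in WT. Gm29443 was at 0.597 ± 0.414 FPKM in KO against 2.51 ± 0.686 FPKM in WT, and 9330104G04Rik at 0.366 ± 0.264 FPKM in KO against 1.36 ± 0.495 FPKM in WT. In WT the order was therefore Pnmal1 and Gm42372, which did not differ beyond their spread, then Dhx34, then Gm29443, then 9330104G04Rik, whose libraries overlapped with those of Gm29443 (up to 1.83 FPKM against as low as 1.72 FPKM). In KO the libraries of Pnmal1 (8.20 to 9.87 FPKM) overlapped with those of Gm42372 (5.87 to 9.37 FPKM), the lowest of which was close to the highest of Dhx34 (5.83 FPKM), and those of both non-coding genes overlapped. The most abundant gene of the interval, the calmodulin gene Calm3, was at 336 FPKM in KO against 347 FPKM in WT.

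Copies elsewhere in the transcriptome were looked for, because shared reads make counts uncertain. Only Gm42372 had an alignment of at least 98% identity over at least 100 bases to another gene's transcript in GENCODE M21, with Gtpbp4 (98.4% over 125 of the 5067 bases of Gm42372), so reads from that stretch are uncertain. At any identity, with an e-value limit of 1e-05, stretches of Gm42372, Gm29443 and 9330104G04Rik matched transcripts of 3035, 2567 and 6619 other genes, against 129 for Pnmal1 and 1 for Dhx34. By alignment score, the best match of Dhx34 was its family member Dhx38 (76.7% identity over 103 bases). The best match of Gm42372 was a stretch of Eprs (95.6% over 204 bases), and that of 9330104G04Rik a stretch of Zcwpw1 (92.3% over 142 bases). Among the chosen genes and their neighbours, Gm29443 matched Gm42372 (88.9% over 135 bases) and 9330104G04Rik matched Ccdc8 (87.3% over 142 bases), while Pnmal1 and Gm42372 gave no match to each other.

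The other genes of the interval mostly had log2 fold changes near 0. Of the 21 tested, 9 were positive and 12 negative, with a median log2 fold change of -0.03, beside -0.004 over all genes tested. None passed by the edgeR test after Benjamini-Hochberg adjustment, as against 0.0467% of all genes. At an unadjusted p under 0.05 there were 2 of 21 (9.52%), beside 2.75% of all genes (1.69% higher and 1.06% lower in KO), and 3 of 21 (14.3%) did not overlap between the groups, beside 7.26%. The 2 were Npas1 and Ccdc8, but the count was 0 without KO 2, KO 4 or WT 1 and by DESeq2, and 1 without KO 6 or WT 3. The 3 that did not overlap, Kptn, Prkd2 and Ccdc8, were all higher in KO.

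Ccdc8, which in human is a subunit of the 3M complex, begins 4555 bases after the end of Gm42372 on the same strand. It had 48, 45 and 41 counts in KO 2, 4 and 6 and 25, 38 and 15 counts in WT 1, 3 and 5. Its level was 3.04 ± 0.10 CPM in KO against 1.78 ± 0.663 CPM in WT (log2 fold change 0.76, SE 0.32, with an adjusted p of 1.0 in edgeR). Npas1, a transcription factor of the bHLH-PAS family found in neurons, was at 0.566, 0.977 and 1.58 CPM in KO 2, 4 and 6 and 2.61, 2.55 and 1.17 CPM in WT 1, 3 and 5. WT 5 lay below KO 6, so its groups overlapped (log2 fold change -1.03, SE 0.46, with an adjusted p of 1.0 in edgeR).

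Abundant genes of the interval differed little between the groups. The log2 fold change was -0.03 (SE 0.11) for Calm3 and 0.04 (SE 0.11) for Napa, which encodes the SNARE recycling factor alpha-SNAP. It was -0.03 (SE 0.12) for the sodium-calcium exchanger Slc8a2, -0.04 (SE 0.13) for the striatin Strn4 and 0.01 (SE 0.11) for Ap2s1, a subunit of the AP-2 endocytic adaptor. Around Dhx34, the homeobox gene Meis3 was at -0.14 (SE 0.19) and Inafm1 at -0.05 (SE 0.27). At the edges of the interval, Napa inside and Bicra outside 16 Mb were at 0.04 and -0.09, and Ccdc8 inside and Ppp5c outside 17 Mb at 0.76 and 0.05.

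**Figure D2:**
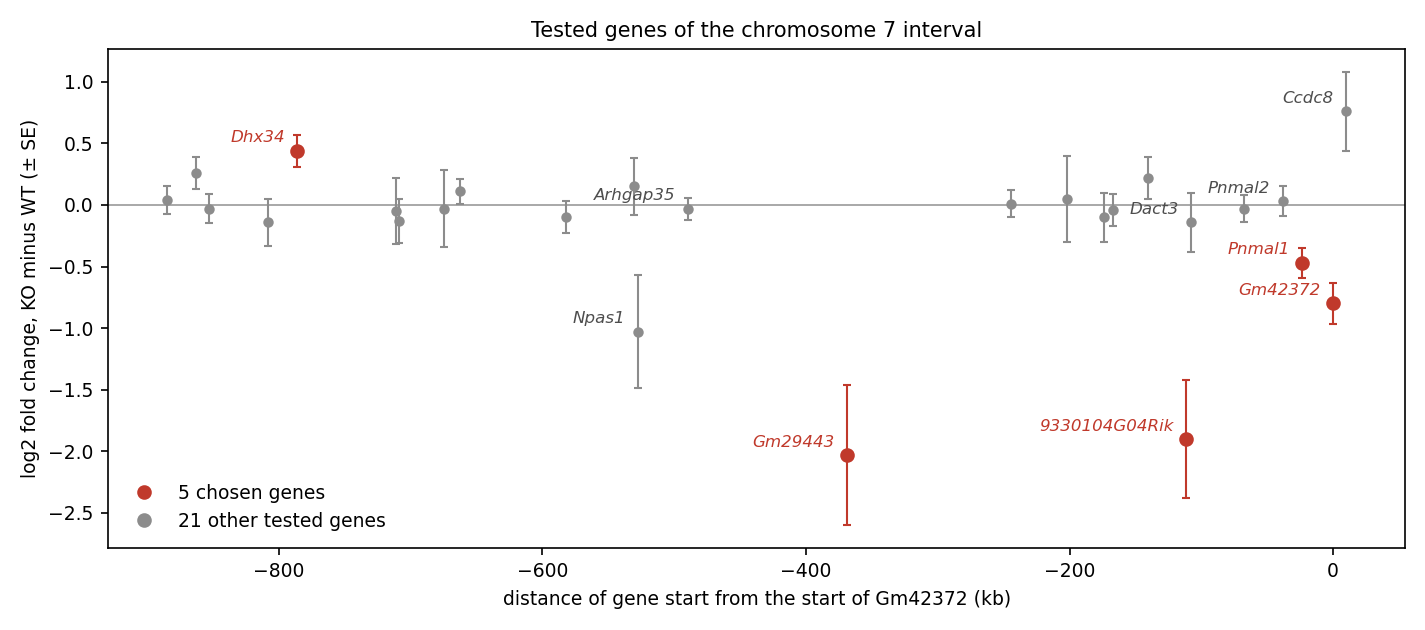
Log2 fold change, KO minus WT, with its SE (vertical axis), of the 26 tested genes of the interval against the distance of the gene start from that of Gm42372 in kb (horizontal axis). The 5 chosen genes are red and the 21 others grey; Gm29443 (-2.03) and 9330104G04Rik (-1.90) lie lowest, and most grey points lie near 0.

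Together with Npas1 and Ccdc8, the interval held 7 genes at an unadjusted p under 0.05. Among the 600 windows of 1 Mb with at least 10 tested genes, 410 held none and no other window held more than 4. The windows with 4 held Ifit genes (chromosome 19), Oas genes (chromosome 5) and a group with Krt18 and Igfbp6 (chromosome 15). Since 5 of the 7 genes were chosen on this contrast, the comparison of windows describes how the genes lie and is no test.

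**Figure D3:**
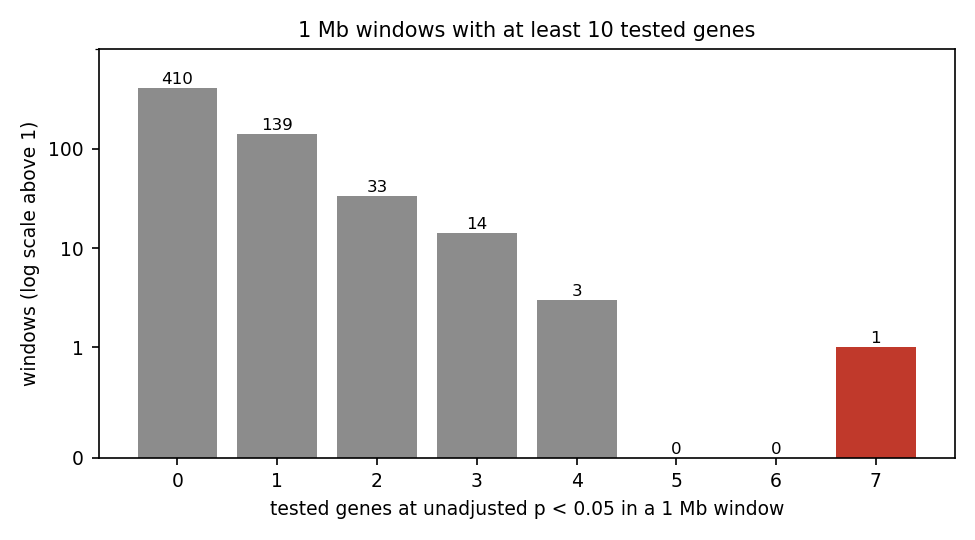
Number of 1 Mb windows (vertical axis, log scale above 1) by the number of tested genes in the window at an unadjusted p under 0.05 (horizontal axis), for the 600 windows with at least 10 tested genes. The red bar is the chromosome 7 interval with 7 genes; 410 windows held 0 and 3 windows held 4.

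Beyond the interval, genes at an unadjusted p under 0.05 lay mostly after it, where more genes were tested. Between 12 and 21 Mb but outside the interval, 7 of 82 tested genes (8.54%) had an unadjusted p under 0.05, beside 2.75% of all genes. Before the interval it was 1 of 27 (3.7%), near the share of all genes, and after it 6 of 55 (10.9%). By groups that did not overlap the 2 sides were alike, with 3 of 27 (11.1%) before and 6 of 55 (10.9%) after, beside 7.26% of all genes. None passed after adjustment in edgeR. Of the 7, 5 were higher and 2 lower in KO. In steps of 10 Mb along the chromosome, a division chosen after the values were seen, 10 to 20 Mb held 14 of 109 tested genes at that level (12.8%, or 8.65% of 104 without the 5), and the other steps held 0% to 6.98%. Over the whole chromosome it was 50 of 1349 genes (3.71%).

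The 7 genes include Psg16, of the pregnancy-specific glycoprotein family, which lies 91.0 kb after the start of Gm42372. It was at 43.3, 44.4 and 32.2 CPM in KO 2, 4 and 6 and 27.6, 21.2 and 33.6 CPM in WT 1, 3 and 5 (log2 fold change 0.54, SE 0.18). Mill2, related to MHC class I genes, was at 7.30, 8.73 and 5.82 CPM in KO against 3.27, 3.51 and 4.99 CPM in WT (log2 fold change 0.89, SE 0.24). Ccdc61, a gene of basal bodies and centrioles, was at 3.21, 3.14 and 6.89 CPM in KO against 10.6, 9.25 and 6.31 CPM in WT (log2 fold change -0.99, SE 0.33). In Psg16 and Ccdc61 the groups overlapped through KO 6 and WT 5, and in Mill2 these libraries lay nearest to the other group. The remaining genes were Gm31152 (0.80), Gm19345 (-1.42), Pvr (0.42) and Gm16251 (2.56), and the spans of Gm16251 and Pvr overlap, so the counts of both are uncertain. The edgeR adjusted p of each of the 7 was 1.0.

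KO 6 and WT 5 were often the libraries nearest to the other group in these genes. In these counts, nearest means the library at the end of its group that faces the mean of the other group. This holds also where that library lies past libraries of the other group. KO 6 was the KO library nearest to WT in 4 of the 5 chosen genes and in 9 of the 9 others at an unadjusted p under 0.05 between 12 and 21 Mb, which are these 7 with Npas1 and Ccdc8. It held that place in 38.7% of all genes tested and in 43.1% of the 471 genes at an unadjusted p under 0.05. WT 5 was the WT library nearest to KO in 4 of the 5 and 6 of the 9, beside 38.0% of all tested genes and 37.4% of the 471. Both held together in 3 of the 5 and 6 of the 9, beside 22.7% of all genes and 13.4% of the 471. The 21 other tested genes of the interval mostly had log2 fold changes near 0. Among these 21, KO 6 held that place in 13 (61.9%), WT 5 in 13 and both in 11 (52.4%), so the placing was not limited to genes that differed. Most of the 21 had overlapping groups, where the placing is not closeness in level. In Calm3, KO 6 was at 939 CPM, above the 923, 932 and 780 CPM of WT 1, 3 and 5. These counts were made after the values were seen and carry no test, and genes of 1 library share that library's depth and tissue.

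**Figure D4:**
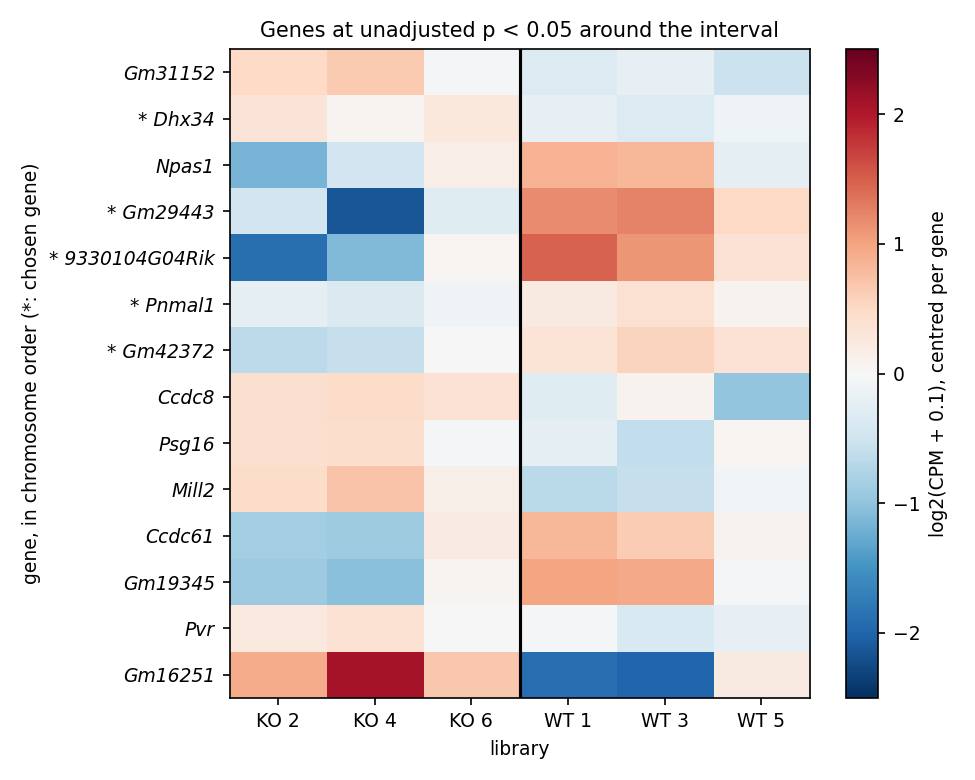
Log2(CPM + 0.1), centred per gene (colour), in the 3 KO and 3 WT libraries (columns) for the 14 genes between 12 and 21 Mb of chromosome 7 at an unadjusted p under 0.05, in chromosome order (rows); asterisks mark the 5 chosen genes. KO 6 and WT 5 have paler colours than the other libraries of their group in many rows, Npas1 and Ccdc61 among them.

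The profiles of 16058 genes of at least 1 CPM over the 6 libraries were compared with those of the chosen genes. The 3 genes least unlike 9330104G04Rik were all on chromosome 7. They were Npas1, Ccdc61 and Oscar, with root mean square differences of 0.539, 0.552 and 0.573 between the centred log2 profiles. For Gm42372 they were Agrp, Hmcn1 and Vgf (0.10, 0.121 and 0.142), for Pnmal1 Otud3, Mgme1 and Tdrd5 (0.074, 0.076 and 0.077) and for Dhx34 Gm6542, Traf3ip2 and Gm10699 (0.051, 0.076 and 0.078), none of them on chromosome 7. Gm29443 lay below 1 CPM on average and was not compared. Among the 5, Pnmal1 and Gm42372 were the most alike (0.237). The matches of 9330104G04Rik were looser than those of the other chosen genes compared. Each profile holds the difference between KO and WT on which the 5 were chosen, so these likenesses are a description and no test.

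The decay pathway of Dhx34 showed no member that passed, beside 0.0467% of all genes. Of the 24 tested genes of nonsense-mediated decay, 6 were positive and 18 negative, beside 8372 positive and 8770 negative over all genes. The median log2 fold change was -0.047, beside -0.004 over all genes. The groups did not overlap in 1 of the 24 (4.17%), beside 7.26%. None had an unadjusted p under 0.05, beside 2.75% of all genes, which for so short a list is near that share, so nothing is read from it. Smg1, the kinase that phosphorylates the central factor UPF1, was at 999 ± 71.5 CPM in KO against 1080 ± 114 CPM in WT (log2 fold change -0.12, SE 0.10). Its partner Smg9 was at -0.31 (SE 0.20), the decapping enzyme Dcp2 at -0.13 (SE 0.11), and the adaptors Upf3a and Upf3b were at 0.18 (SE 0.13) and 0.14 (SE 0.11).

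RNAs that this pathway is known to degrade did not pass either. Of 19 tested, 14 were positive and 5 negative, with a median of 0.024. Of these, 3 (15.8%) did not overlap between the groups, beside 7.26% of all genes, and 1 (5.26%), Ddit3, had an unadjusted p under 0.05, beside 2.75%. Without KO 2, KO 4, WT 1 or WT 3 that count was 0. The small nucleolar RNA hosts Gas5, Zfas1 and Snhg15 were at 0.53 (SE 0.38), 0.25 (SE 0.19) and 0.51 (SE 0.29), with Gas5 spread widely in KO (13.0 ± 8.48 CPM in KO against 9.02 ± 1.83 CPM in WT). Ddit3, a stress-response transcription factor, was at 19.7 ± 2.55 CPM in KO against 24.5 ± 0.879 CPM in WT (log2 fold change -0.32, SE 0.13, with an adjusted p of 1.0 in edgeR). The abundant members Hnrnpl and Srsf3, splicing regulators, were at 0.06 and 0.05.

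In the families of the chosen genes no other member passed, beside 0.0467% of all genes. Of 17 tested DEAH-box helicases 9 were positive and 8 negative (median 0.008). None had an unadjusted p under 0.05, beside 2.75% of all genes, which for so short a list is near that share, so nothing is read from it. The groups did not overlap in 1 (5.88%), Dhx29, beside 7.26%. Dhx9 was at 0.01 (SE 0.10), Dhx15 at 0.04 (SE 0.11), Dhx29 at 0.08 (SE 0.10) and Dhx32 at 0.08 (SE 0.11). Dhx35 was at -0.14 (SE 0.14) and Dqx1 at -0.47 (SE 0.41). Of 7 tested PNMA genes other than Pnmal1, 2 were positive and 5 negative (median -0.096), and Ccdc8 alone had an unadjusted p under 0.05 (14.3%, beside 2.75% of all genes). That count was 0 without KO 4, WT 1 or WT 5 and 2 without KO 2 or WT 3. The groups did not overlap in 2 of the 7 (28.6%, beside 7.26%), Ccdc8 and Zcchc12. Zcchc12 was at 15.2 ± 5.35 CPM in KO against 21.6 ± 2.08 CPM in WT (log2 fold change -0.50, SE 0.24). Pnma2, Pnma3 and Zcchc18 were at -0.39 (SE 0.20), -0.30 (SE 0.21) and -0.03 (SE 0.10).

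Other contents of the libraries were set side by side as well, and the sums of the cell markers overlapped or lay close. The summed level of 18 interferon response genes was 180 to 224 CPM in KO against 58.1 to 73.3 CPM in WT, with 6 of the 18 called higher by edgeR, beside 0.0467% of all genes, and no gene at all called without WT 1 or WT 3. The 6 are among the 8 called over all genes. This list was included because earlier results of these data showed it higher in KO, so its level is a description and nothing is read from the count. The 6 choroid plexus markers summed to 1350, 1820 and 615 CPM in KO 2, 4 and 6 and to 750, 277 and 156 CPM in WT 1, 3 and 5. These groups overlapped, since KO 6 lay below WT 1. The 4 granule cell markers summed to 3440 to 3620 CPM in KO against 3680 to 3820 CPM in WT, and the 4 microglia markers to 65.0 to 72.7 CPM in KO against 54.9 to 63.4 CPM in WT. The groups did not overlap in these 2 sums, but the nearest libraries were close, at 3620 and 3680 CPM and at 65.0 and 63.4 CPM. The 4 Purkinje cell markers (2200 to 2920 CPM in KO, 2040 to 2660 CPM in WT) and the 3 Bergmann glia markers (1900 to 1920 CPM in KO, 1880 to 1960 CPM in WT) overlapped. So did the 4 forebrain markers (5.41 to 20.7 CPM in KO, 6.82 to 7.55 CPM in WT) and the 4 brainstem markers (34.7 to 43.6 CPM in KO, 36.1 to 40.2 CPM in WT), of which Hoxb5 and Hoxb6 had no count. KO 6, the KO library nearest to WT in 4 of the 5 chosen genes, had the highest interferon sum. The part of these differences in the levels of the chosen genes was not tested.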

How the data were processed

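Per the labels' protocols, RNA was extracted with TRIZOL and a company prepared the libraries in house. The submitters' processing notes name HISAT2, DESeq2 and the build GRCm38.p6. The counting program and strand setting were not given in the sources used here. Deposited count columns hold raw whole numbers per gene, and the deposited FPKM columns hold the authors' values per gene length and library total. The deposited group means are the authors' normalized signal per group and were not used. The log2 fold changes and p-values of KO against WT in the authors' deposited table were copied as they stand.

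The test was edgeR 4.0.16 under R 4.3.3 (quasi-likelihood F test, TMM, filterByExpr by group, 17142 genes, Benjamini-Hochberg adjustment, calls at an adjusted p under 0.05). Fold changes are KO minus WT, and each SE was derived from the fold change and its F statistic. CPM are TMM-normalized, and 1 count was worth 0.0629 to 0.0733 CPM. Each library is 1 animal, per the labels, and animal numbers are not shared between groups. The members and lists were chosen with earlier results of these data known. Named were the 5 genes, other interval genes at an unadjusted p under 0.05 or of highest CPM, neighbours, edge genes, and up to 6 genes per list by p and CPM, except the interferon list, given as a sum. Kptn and the genes between 12 and 21 Mb were named after their values were seen. Promoters came from RefSeq and gene models and transcripts from GENCODE M21, whose spans of the 5 genes equal those in the table. Transcripts were compared with BLAST+ 2.17.0 (e-value 1e-05). Alternatives covered normalization, the filter, DESeq2 1.42.0, limma 3.58.1 with voom, left-out libraries and the interval's width. The test was checked on simulated counts. Tables and figures were made with Python 3.11.15, pandas 2.3.3 and matplotlib 3.10.9.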

Additional observations from a re-analysis of the deposited data

How the results depend on the processing

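Over the 12 alternatives to normalization, filter, test and libraries, the log2 fold change of the 5 chosen genes, whose direction their choice fixed, ranged over 0.38 to 0.57 for Dhx34, -2.39 to -1.56 for Gm29443, -2.63 to -1.52 for 9330104G04Rik, -0.55 to -0.39 for Pnmal1 and -1.04 to -0.68 for Gm42372. The count of all genes called, 8, was 142 with no filter on low counts, 45 by DESeq2, 41 without KO 4 and WT 5, and 0 to 27 with single libraries left out (0 without WT 1 or WT 3, 2 without KO 2, 3 without KO 6, 17 without KO 4 and 27 without WT 5). The 2 other interval genes at an unadjusted p under 0.05 became 1 with library totals only, 0 by DESeq2 and 0 to 2 with single libraries left out: 0 without KO 2, KO 4 or WT 1 and 1 without KO 6 or WT 3. Medians of lists moved beyond their replicate spread in a few cases. The decay list was at -0.001 without KO 4 and WT 5, the decay-sensitive list at 0.003 to 0.086 and the helicase list at -0.019 to 0.005 with single libraries left out. The cause was not tested. No paired analysis was possible because the groups share no animal number. Depth limits Gm29443 most, with 15 counts in KO.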
